A study of Mus musculus with 10 samples.

Results

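A set of 10 genes of the bone morphogenetic protein (BMP) pathway were followed in lung tumours of mice with a homozygous floxed Slc2a1 gene and of controls. Slc2a1 encodes Glut1, a transporter that carries glucose into cells. They were the ligand genes Bmp2, Bmp4 and Bmp6, the receptor gene Bmpr2, the response genes Id1, Id2, Id3 and Id4, and the genes of the inhibitory SMADs, Smad6 and Smad7. Each was taken as the gene of the deposited count table whose symbol equals its name, which gave 10 of the 39017 genes listed, with 0 symbols repeated. The genes were picked with earlier results of these libraries known, so their differences between groups are given as a description.

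BMP ligands are secreted dimers that bring together type I and type II receptor kinases at the cell surface. The type I receptor then phosphorylates SMAD1, SMAD5 and SMAD9 (also called SMAD8), which enter the nucleus with SMAD4 and raise transcription of the ID genes and of Smad6 and Smad7. ID proteins bind the E proteins, helix-loop-helix transcription factors, and keep them from DNA, and SMAD6 and SMAD7 block the pathway at the receptor. In the lung BMP4 is known for its part in epithelial patterning and BMPR2 for its loss in pulmonary arterial hypertension.

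The tumours came from C57BL/6 mice with K-rasLSL-G12D/WT and p53Fl/Fl alleles, which all groups share, and were started with an adenovirus that expresses Cre from a CC10 promoter, active in club cells of the airway. Of these, 5 libraries were labelled control, with the floxed Slc2a1 allele given as heterozygous (fl/wt) although the design text speaks of wild-type Glut1, and 5 were labelled Glut1-KO, with the allele homozygous (fl/fl). At 20 weeks and 1 day after initiation the tumours were macrodissected, dissociated and depleted of CD45-positive leukocytes with beads, and polyadenylated RNA of what remained was sequenced as bulk. Ages beyond this time were not given in the sources used here. All 5 controls were labelled male, whereas female was the label of Glut1-KO replicates 1 to 3 and male that of 4 and 5, so that sex and genotype were partly confounded and genotype can be compared within 1 sex only among the 7 male libraries. A second number in the deposited names may stand for the mouse, and it takes only 2 values among the controls (replicates 1, 2 and 5 share one, replicates 3 and 4 the other) and 4 among the Glut1-KO libraries (replicates 4 and 5 share one). No label calls the libraries separate animals, and the errors below measure the spread between libraries.

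The libraries held between 35.3 and 49.8 M counts (M, mega). Slc2a1 itself measured 118, 86.6, 92.5, 103 and 73.2 TMM-scaled CPM (counts per M) in controls 1 to 5, and 60.2, 42.5, 34.6, 92.4 and 103 CPM in Glut1-KO 1 to 5. The 3 female Glut1-KO libraries lay below all controls and the 2 male ones within the control range, so the level of the targeted gene did not set the 2 male libraries labelled Glut1-KO apart from controls. In what follows, Glut1-KO stands for the libraries labelled so, and every direction given is between labels. Counts were per gene and do not separate the floxed exons from the rest. Markers of alveolar type 2 cells, which make surfactant, summed to between 27407 and 75538 CPM over the 10 libraries, and markers of club cells to between 2080 and 11774 CPM. Ptprc, the gene of CD45, averaged 2.76 CPM in controls and 7.91 CPM in Glut1-KO.

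Promoter sequences of 7 members were found in the RefSeq table (GRCm38.p6), and the 250 bases before the RefSeq start were searched on both strands for 2 motifs. GGCGCC is a motif that BMP-activated SMADs are known to bind, and CANNTG is the E-box, the site of E proteins. Each of these reads the same on both strands, and no match of one overlapped a match of the other in the sequences shown. GGCGCC was present in 3 of the 7 windows (Bmpr2, Id2 and Id4), beside 9.59% of all 32851 promoters of the table. The 7 windows held 62.8% to 75.6% G and C, beside a median of 52.4% over all promoters, so the shares for this motif of G and C alone are not those of like sequences. CANNTG was present in 3 of 7 (Bmp4, Bmp6 and Id2), beside 66.2% of all. In the GENCODE annotation, where transcription of some of these genes starts further upstream, the windows of Bmpr2, Bmp6 and Id3 lie wholly in exons of the gene itself and that of Id2 by 161 of 250 bases. Of the windows with a match, only those of Id4 (GGCGCC) and Bmp4 (CANNTG) thus lie outside exons. The windows of Bmp4 (chr14:46390670-46390919, minus strand), Id4 (chr13:48260866-48261115, plus strand) and Smad6 (chr9:64022060-64022309, minus strand) are shown because they hold a ligand, a response gene and an inhibitor and overlap 0 exon bases of their own or any other GENCODE gene. Capitals mark the motif matches, 5′ to 3′.
Bmp4: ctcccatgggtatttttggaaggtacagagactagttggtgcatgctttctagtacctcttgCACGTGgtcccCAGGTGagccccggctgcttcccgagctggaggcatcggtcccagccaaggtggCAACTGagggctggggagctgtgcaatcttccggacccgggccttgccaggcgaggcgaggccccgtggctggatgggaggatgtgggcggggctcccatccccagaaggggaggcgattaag
Id4: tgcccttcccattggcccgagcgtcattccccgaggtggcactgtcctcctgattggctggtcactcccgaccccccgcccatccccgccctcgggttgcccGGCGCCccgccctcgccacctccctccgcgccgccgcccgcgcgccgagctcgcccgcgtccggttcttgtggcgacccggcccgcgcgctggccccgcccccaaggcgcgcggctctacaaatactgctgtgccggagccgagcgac
Smad6: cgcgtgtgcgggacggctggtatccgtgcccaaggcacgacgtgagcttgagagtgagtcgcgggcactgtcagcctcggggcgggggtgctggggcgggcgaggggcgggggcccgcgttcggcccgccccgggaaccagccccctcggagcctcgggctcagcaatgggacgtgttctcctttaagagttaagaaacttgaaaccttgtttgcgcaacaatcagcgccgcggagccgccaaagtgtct
The Bmp4 window held 3 E-boxes, which begin 188, 177 and 123 bases before the start. The Id4 window held GGCGCC 148 bases before the start, and the Smad6 window held neither set of letters. A match is a description of the letters and not a binding site.

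Across the 15922 genes tested between groups, limma-voom with Benjamini-Hochberg adjustment called 0 (0.0%) at an adjusted p under 0.05, and edgeR's quasi-likelihood test also called 0, whereas DESeq2 called 215 (1.35%), of which 105 (0.659%) were lower in Glut1-KO. Of the 10 members, limma called 0, and DESeq2 called 1, Bmp6, as lower. At an unadjusted limma p under 0.05 stood 1223 genes (7.68%) and 4 of the 10 members, Bmp6, Bmpr2, Id3 and Id4. The groups did not overlap for 295 genes (1.85%), with Glut1-KO lower for 168 (1.06%), and for 1 member, Bmp6, which was lower. Since the members were picked on this contrast, nothing is read from these shares. Over the members the limma adjusted p ran from 0.396 for Bmp6 to 0.983 for Smad6.

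**Figure D1:**
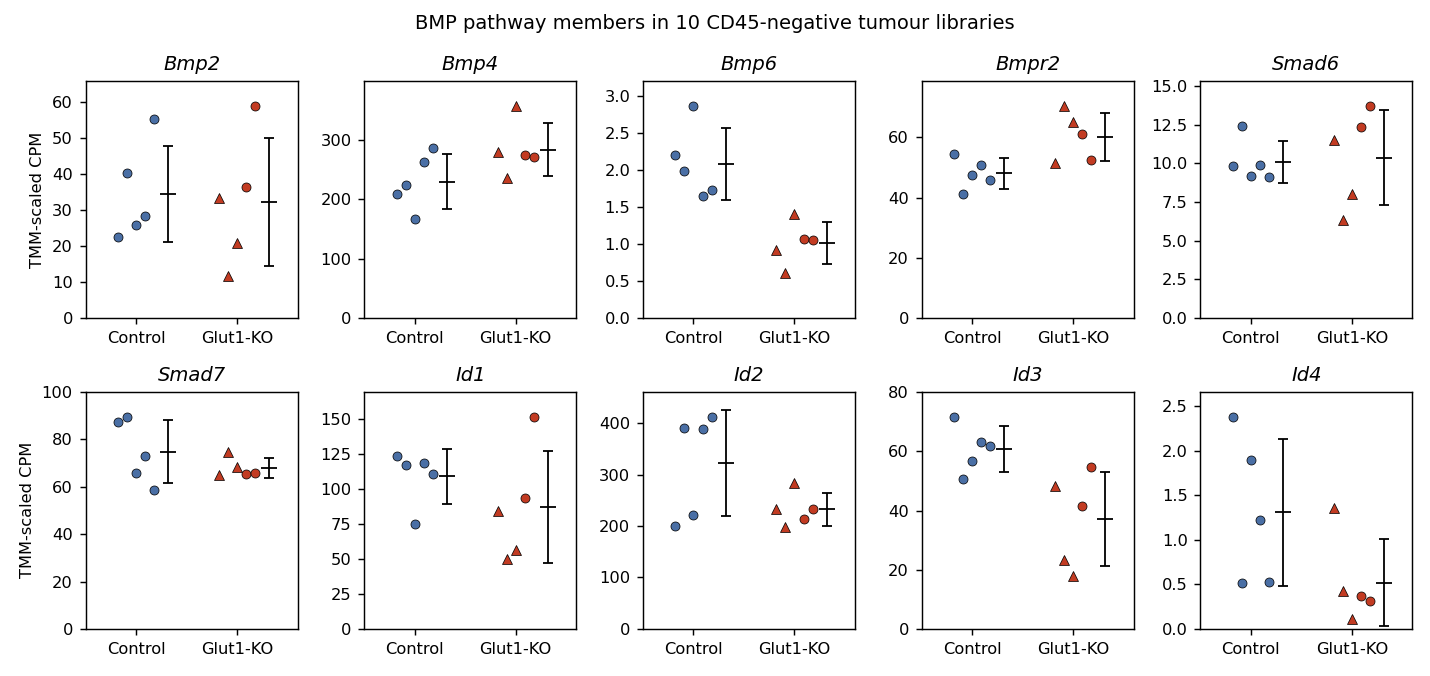
TMM-scaled CPM of each member (vertical axes, from 0) in 5 control (blue) and 5 Glut1-KO (red) libraries, drawn from replicate 1 to 5 from left to right. Circles are male and triangles female, and black bars give the mean and SD of the group. Bmp6 is the only member of the 10 whose groups do not overlap, and Id1 and Id3 are lowest in 2 of the female Glut1-KO libraries.

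Among the ligands, Bmp4 (chr14:46383520-46390669) was the most abundant per length. Its level was 328 ± 75.9 TPM (transcripts per M, scaled by exon length; SD, n = 5) in controls and 403 ± 66.1 TPM (SD, n = 5) in Glut1-KO. Bmp4 made up 74.5% ± 7.43 (SD, n = 5) of the summed TPM of 14 BMP ligand genes in controls and 80.5% ± 5.43 (SD, n = 5) in Glut1-KO. Bmp5, a close relative that is not among the members, followed with 13.4% and 10.8%, and Bmp2 with 7.10% and 5.78%. Bmp6 came to 0.407% and 0.165% of the sum, so the ligand with the clearest gap between groups was a small part of the ligand transcripts. Of the other ligands Gdf2 and Gdf7 had 0 counts in every library. In these bulk samples fewer cells of a type and less RNA per cell cannot be told apart, here and in all results that follow.

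**Figure D2:**
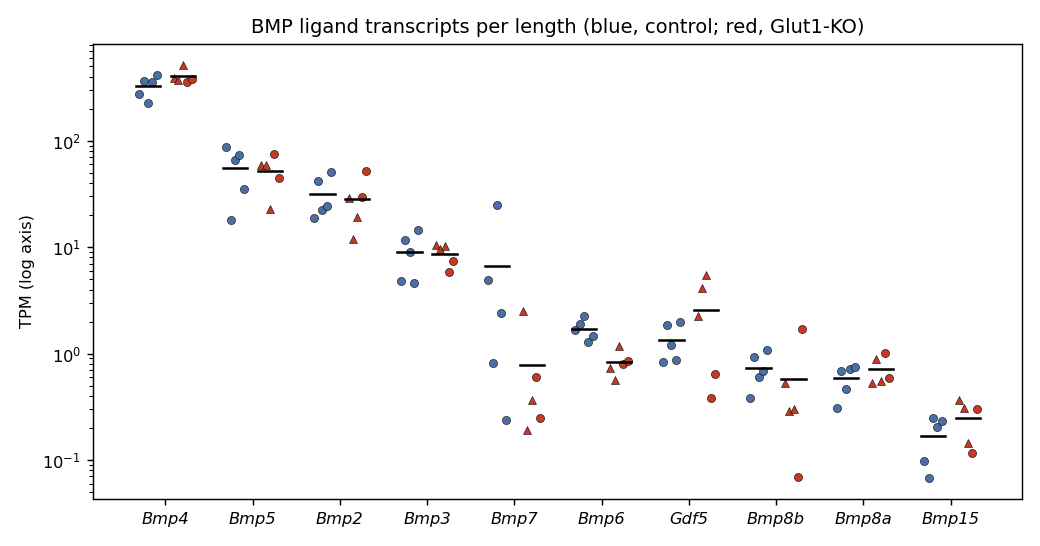
TPM (log axis) of the 10 BMP ligand genes with counts in all 10 libraries, ordered by control mean. Blue points are controls, red points Glut1-KO, circles male, triangles female, and bars group means. Bmp4 stands highest in both groups, at means of 328 and 403 TPM, and the points of Bmp7 spread the most widely.

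Bmp4 measured 209, 223, 167, 262 and 286 CPM in controls 1 to 5, and 280, 235, 356, 274 and 270 CPM in Glut1-KO 1 to 5. The ranges overlapped, with 1 Glut1-KO library above all controls. The log2 difference, Glut1-KO minus control, was 0.31 ± 0.16 (SE; 95% interval -0.04 to 0.67), or 1.24-fold.

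Bmp2 (chr2:133552159-133562885), a ligand close in sequence to Bmp4, varied more within the groups than between them. It measured 22.7, 40.4, 25.97, 28.4 and 55.4 CPM in controls 1 to 5, and 33.5, 11.7, 21.0, 36.5 and 58.9 CPM in Glut1-KO 1 to 5. Female Glut1-KO replicates 2 and 3 lay below all controls and 1 male library above all. The log2 difference was -0.23 ± 0.40 (SE), and it turned to 0.51 among male libraries and to 0.09 without Glut1-KO replicate 2.

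Bmp6 (chr13:38345107-38500302), known in the liver as the ligand that raises hepcidin, was the member whose values separated. It measured 2.20, 1.98, 2.86, 1.65 and 1.73 CPM in controls 1 to 5, and 0.925, 0.618, 1.41, 1.07 and 1.06 CPM in Glut1-KO 1 to 5. All 5 Glut1-KO libraries, of either sex, lay below the lowest control. The log2 difference was -1.04 ± 0.28 (SE; 95% interval -1.65 to -0.44), which is 0.485 of the control level. These values rest on 26 to 116 counts per library. Bmp6 also shares 224 of its 3900 exon bases with Txndc5 on the opposite strand, a gene with 118913 counts over the 10 libraries against 656 for Bmp6. The libraries were stranded, but whether the counting used strand is not given in the sources used here. Without it, reads of the 2 genes in the shared bases cannot be told apart.

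The receptor gene Bmpr2 (chr1:59763400-59879014) encodes the type II receptor for BMPs. It measured 54.5, 41.2, 47.3, 50.9 and 45.9 CPM in controls 1 to 5, and 51.6, 70.2, 65.0, 60.9 and 52.6 CPM in Glut1-KO 1 to 5. Glut1-KO 2, 3 and 4 lay above all controls and the other two inside the control range. The log2 difference was 0.32 ± 0.12 (SE; 95% interval 0.05 to 0.59), with an adjusted p of 0.587 by limma.

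Endothelial cells are known to express Bmpr2. All 12 of 12 endothelial markers had log2 differences above 0, with a median of 0.64, and 0 of the 12 passed the limma threshold. Their summed level ran from 146 to 508 CPM in controls and from 247 to 683 CPM in Glut1-KO, and 0 of them was at 0 counts in any library. Their part in the difference of Bmpr2 was not tested.

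The ID genes are the best known transcriptional targets of BMP signalling, and all 4 had lower mean CPM in Glut1-KO. Their log2 differences had a median of -0.63, and 0 of the 4 passed the limma threshold. All 4 are members picked on this contrast, so nothing is read from the median. Id2, Id1 and Id3 made up nearly all of the family's summed TPM, at 49.9%, 36.5% and 13.5% in controls, and Id4 0.146%. The sum over the 4 genes was 678, 1075, 571, 906 and 977 TPM in controls 1 to 5, and 605, 493, 574, 558 and 807 TPM in Glut1-KO 1 to 5. The ranges overlapped.

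Id1 (chr2:152736251-152737410) measured 124, 117, 75.1, 119 and 111 CPM in controls 1 to 5. In Glut1-KO 1 to 5 it measured 84.1, 50.2, 56.4, 93.9 and 151 CPM. Female Glut1-KO replicates 2 and 3 lay below all controls, and male replicate 5 held the highest value of all 10. The log2 difference was -0.42 ± 0.28 (SE). It was 0.15 with sex as a covariate, which leaves the comparison to the male libraries.

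Id2 (chr12:25093799-25097140) encodes an inhibitor that also marks the distal tip of the embryonic lung. It measured 200.05, 391, 220.4, 389 and 411 CPM in controls 1 to 5, and 233, 197, 284, 213 and 234 CPM in Glut1-KO 1 to 5. The controls fell apart into 2 low and 3 high libraries, and this did not follow the number in the deposited names. All 5 Glut1-KO libraries lay below the 3 high controls, and the log2 difference was -0.42 ± 0.22 (SE).

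Id3 (chr4:136143497-136145755) measured 71.6, 50.7, 56.7, 63.1 and 61.8 CPM in controls 1 to 5. In Glut1-KO 1 to 5 it measured 48.2, 23.3, 17.8, 41.6 and 54.6 CPM. Of the 5 Glut1-KO libraries 4 lay below all controls, and male replicate 5 overlapped with them. The log2 difference was -0.83 ± 0.28 (SE; 95% interval -1.46 to -0.21), or 0.561 of the control level. With sex as a covariate, which leaves the comparison to the male libraries, it was -0.33 ± 0.30 (SE). The Glut1-KO libraries also spread more, with a coefficient of variation of 42.9% against 12.8% in controls.

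Id4 (chr13:48261228-48266026) was barely detected, with 5 to 94 counts per library. It measured 2.38, 0.519, 1.901, 1.22 and 0.530 CPM in controls 1 to 5, and 1.36, 0.428, 0.112, 0.368 and 0.317 CPM in Glut1-KO 1 to 5. Glut1-KO 2 to 5 lay below all controls, but 2 controls were close to them, and the log2 difference of -1.47 ± 0.65 (SE; 95% interval -2.90 to -0.04) was the least precise of the members. Id4 shares exon bases with 2 genes on the opposite strand, 82 with A330033J07Rik, which had 4 counts in all, and 171 with Gm49291, which was not analysed here.

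SMAD6 binds BMP receptors and SMAD1, and SMAD7 acts on both BMP and TGF-beta receptors. Smad6 (chr9:63953076-64022059) measured 9.84, 12.4, 9.21, 9.92 and 9.13 CPM in controls 1 to 5, and 11.5, 6.37, 7.99, 12.3 and 13.7 CPM in Glut1-KO 1 to 5. The Glut1-KO values spread to both sides of the controls, with a log2 difference of -0.03 ± 0.22 (SE) that changed sign under 8 alternatives. Of these, sex as a covariate and male libraries alone rest on the same male libraries. Smad7 (chr18:75367529-75395935) measured 87.2, 89.4, 65.8, 72.9 and 58.8 CPM in controls 1 to 5, and 65.1, 74.9, 68.4, 65.4 and 65.7 CPM in Glut1-KO 1 to 5. All its Glut1-KO values lay within the control range, with a log2 difference of -0.12 ± 0.13 (SE; 95% interval -0.41 to 0.16).

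Per length, the order of the members in controls was Id2 (430 TPM), Bmp4 (328), Id1 (302), Id3 (108), Smad7 (53.3), Bmp2 (31.7), Smad6 (10.2), Bmpr2 (8.49), Bmp6 (1.71) and Id4 (1.05). The control ranges of Id2, Bmp4 and Id1 overlapped from neighbour to neighbour, as did those of Smad7 and Bmp2, of Smad6 and Bmpr2, and of Bmp6 and Id4. The ranges were apart between Id1 and Id3, between Id3 and Smad7, between Bmp2 and Smad6, and between Bmpr2 and Bmp6.

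The members differed in how far their values followed the sex labels of the Glut1-KO libraries. The same split parts these libraries by Slc2a1 level and by the number in the deposited names, so the 3 cannot be told apart. The 3 female libraries against the 5 controls gave log2 differences of -1.15 for Id3, -0.79 for Id1, -0.69 for Bmp2 and -0.27 for Smad6. The 2 male libraries against the same controls gave -0.33, 0.15, 0.51 and 0.36 for these genes. Bmp6 differed by -1.11 and -0.93, Id4 by -1.37 and -1.61, Id2 by -0.38 and -0.46, Bmp4 by 0.35 and 0.27, Bmpr2 by 0.38 and 0.24, and Smad7 by -0.09 and -0.18. These 6 members held their sign in both subsets, as did Id3. Both subsets share the controls, and the difference between them was not tested. Values did not overlap with controls for Bmp6 and Id3 in the female libraries, where 9.50% of genes did not overlap (5.24% with Glut1-KO lower), and for Bmp6 and Id4 in the male libraries, where 17.1% did not (8.61% with Glut1-KO lower). All of these members were lower.

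**Figure D3:**
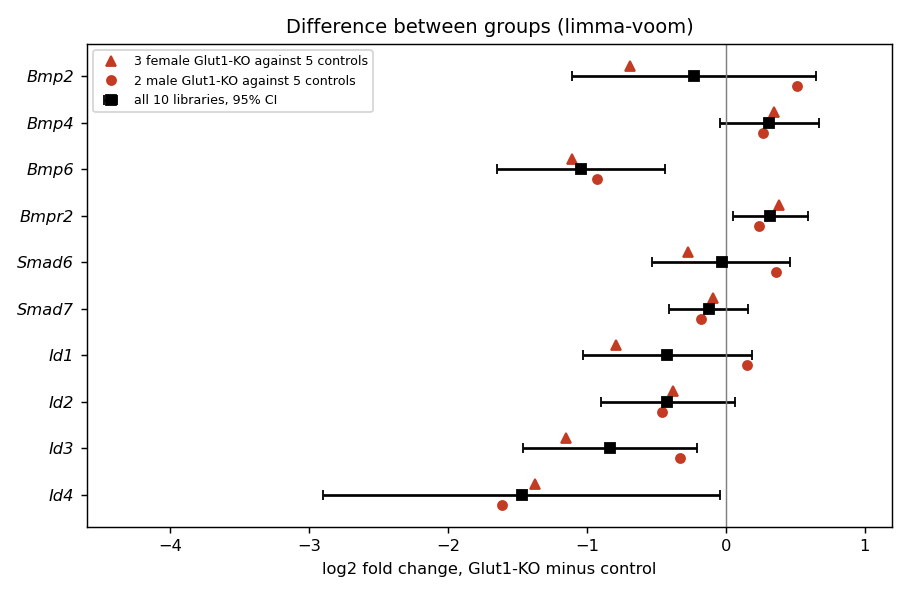
Log2 differences, Glut1-KO minus control, of the 10 members (horizontal axis). Black squares with 95% intervals use all 10 libraries, red triangles the 3 female and red circles the 2 male Glut1-KO libraries against the 5 controls. The triangle and circle lie on opposite sides of 0 for Bmp2, Smad6 and Id1.

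Slc2a1 had its 3 lowest values in the 3 female libraries, whereas Id1, Bmp2 and Smad6 were below all controls in female replicates 2 and 3 and within the control range in female replicate 1. Over the 10 libraries the Pearson r of log2 CPM with Slc2a1 was 0.91 for Id3 and 0.85 for Id1, given as a description of points that share 2 genotypes, sex and library composition. Slc2a1 (chr4:119108711-119137983) lies on the same chromosome as Id3, and whether that bears on their r was not tested. How many other genes reach such an r with Slc2a1 was not counted. Id2 had an r of 0.06 with Slc2a1, and Bmp4 one of -0.52. Among pairs of members the highest were Id1 with Id3 at 0.83 and Bmp2 with Smad6 at 0.80, while Id1 and Id2 reached 0.34. The lowest was Bmpr2 with Id3, at -0.74.

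**Figure D4:**
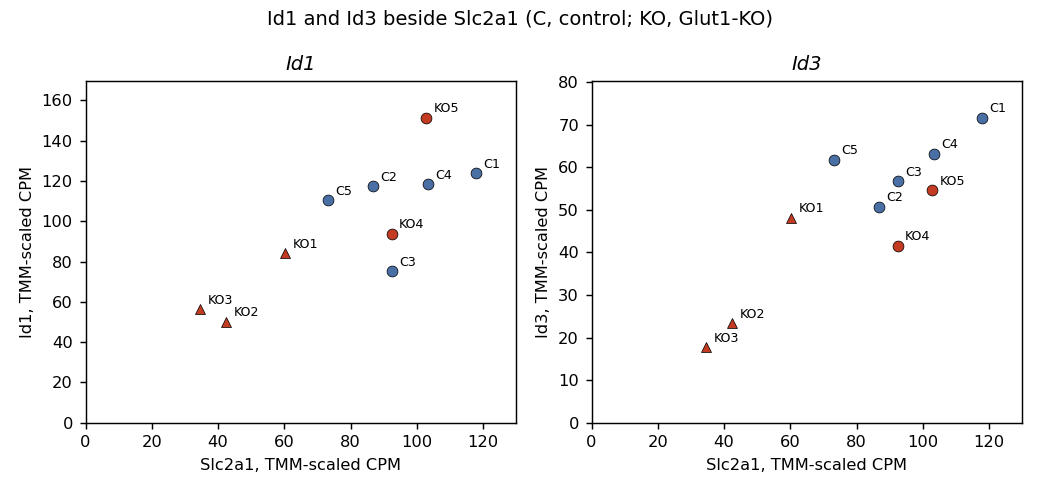
Id1 (left) and Id3 (right) in TMM-scaled CPM against Slc2a1 in TMM-scaled CPM, 1 point per library, blue controls (C1 to C5) and red Glut1-KO (KO1 to KO5), circles male and triangles female. Female Glut1-KO 2 and 3 lie at the lower left of both panels, and male Glut1-KO 4 and 5 lie among the controls along the Slc2a1 axis.

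The rest of the pathway was described from lists, in which 0 genes passed the limma threshold. Of 14 ligand genes, 9 were tested, 5 with log2 differences above 0 and 4 below. The 2 tested non-members with the smallest p were Bmp7, at -2.16 ± 1.29 (SE; limma adjusted p = 0.728), and Bmp8b, at -0.90 ± 0.64 (SE; limma adjusted p = 0.768). Bmp7 ran from 0.289 to 32.9 CPM within the controls, so its mean rests on a single library, control 3.

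Among 10 receptor and co-receptor genes, 6 had differences above 0 and the median was 0.17. Acvrl1, the type I receptor ALK1 of endothelial cells, measured 15.6 ± 7.49 CPM (SD, n = 5) in controls and 22.2 ± 5.64 CPM (SD, n = 5) in Glut1-KO, a difference of 0.67 ± 0.33 (SE; limma adjusted p = 0.677). Acvr2a, a type II receptor, differed by 0.20 ± 0.12 (SE; limma adjusted p = 0.733). The 4 BMP-branch SMAD genes had a median of 0.00, with Smad5 at -0.08 ± 0.14 (SE) and Smad9 at 0.26 ± 0.65 (SE). Smurf1 and Smurf2, ubiquitin ligases that act on SMADs and receptors, differed by 0.00 ± 0.16 and -0.08 ± 0.10 (SE).

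Of 18 extracellular antagonist genes 12 were tested, 6 above and 6 below 0. Grem1, which encodes the BMP-binding protein gremlin, measured 4.58 ± 1.93 CPM (SD, n = 5) in controls and 2.03 ± 0.982 CPM (SD, n = 5) in Glut1-KO, a difference of -1.25 ± 0.42 (SE; limma adjusted p = 0.513). Fstl1, a follistatin-like protein, measured 31.6 ± 11.9 and 53.5 ± 12.7 CPM (SD, n = 5 each), with 4 of 5 Glut1-KO libraries above all controls and a difference of 0.81 ± 0.28 (SE; limma adjusted p = 0.531). These antagonists thus differed in opposite directions, neither past the threshold. Of 5 other BMP response genes 3 were tested, 2 above 0 and 1 below, and Hey1 and Bambi differed by 0.51 ± 0.48 and 0.17 ± 0.21 (SE).

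The E proteins, which the ID proteins bind, had 2 of 3 genes below 0. Tcf12 differed by -0.27 ± 0.12 (SE; limma adjusted p = 0.665) and Tcf3 by -0.37 ± 0.21 (SE; limma adjusted p = 0.723). In the TGF-beta branch, which signals through SMAD2 and SMAD3, 10 of 13 genes lay below 0, with a median of -0.10. Smad3 measured 146 ± 24.6 and 108 ± 26.6 CPM (SD, n = 5 each), with 4 of 5 Glut1-KO libraries below all controls and a difference of -0.46 ± 0.18 (SE; limma adjusted p = 0.592). Inhba, a subunit of activin, differed by -2.16 ± 0.88 (SE; limma adjusted p = 0.615), and its controls alone ran from 1.23 to 25.9 CPM. For Inhba, Grem1 and Tcf12 the 3 female Glut1-KO libraries lay below all controls and the 2 male ones within the control range.

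**Figure D5:**
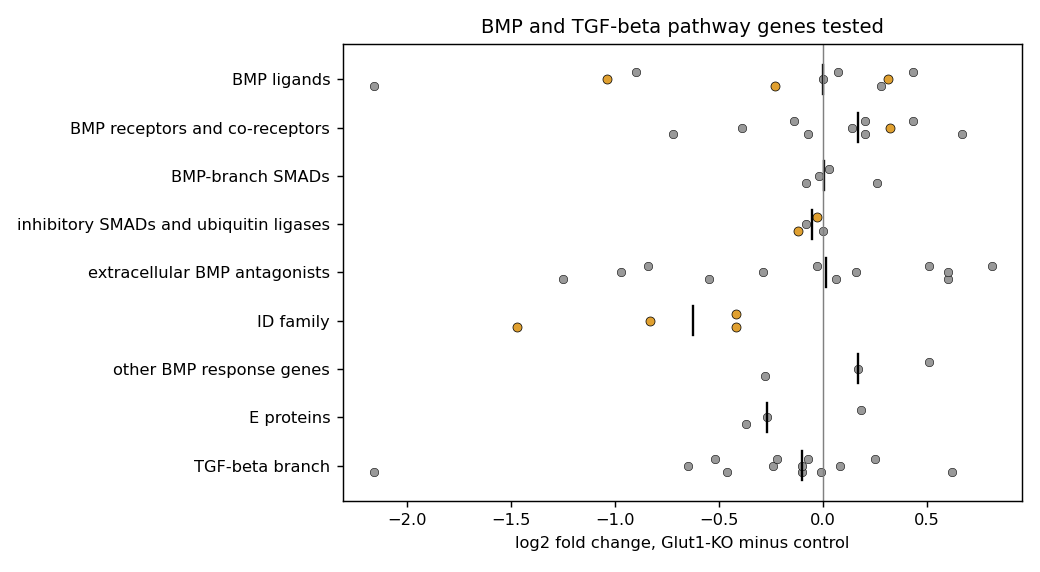
Log2 differences, Glut1-KO minus control (horizontal axis), of every tested gene of 9 pathway lists, with the members in orange, other genes in grey and the list median as a black line. The ID family, whose 4 genes are all members picked on this contrast, has a median of -0.63. No gene shown passed the limma threshold.

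Markers of other cells and of tissue handling were also compared between the groups, and 0 of them passed the limma threshold. Their part in any result was not tested. Of 16 genes induced by dissociation stress, 15 had differences below 0 with a median of -0.32, and their sum ran from 6537 to 8811 CPM in controls and from 4366 to 7016 CPM in Glut1-KO. At an unadjusted limma p under 0.05 stood 6 of the 16, beside 7.68% of all genes tested. The groups did not overlap for 3 of the 16, beside 1.85% of all. Lyz2, which alveolar type 2 cells also make, was left out of the leukocyte sum after the data were seen. The other 11 leukocyte markers, 9 of 10 tested above 0, summed to 33.4 to 38.0 CPM in controls. In Glut1-KO they summed to 40.1 to 71.4 CPM, with all 5 libraries above all controls. Of the 10 tested, 7 stood at an unadjusted limma p under 0.05, and 5 did not overlap between groups. With Lyz2 (log2 difference -0.70 ± 0.63, SE) the sum ran from 987 to 11347 CPM in controls and from 1972 to 7917 CPM in Glut1-KO. Of the leukocyte markers 1, Cd3e, was at 0 counts in at least 1 library. No other marker of these lists was at 0 in any library. Fibroblast and mural markers, 7 of 12 below 0, summed to 1068 to 3338 CPM and 826 to 2634 CPM. Most of this sum was Fn1, at means of 1703 CPM in controls and 1331 CPM in Glut1-KO. Ciliated cell markers, 7 of 8 below 0, summed to 13.7 to 242 CPM and 20.9 to 60.2 CPM. Club cell markers, 4 of 6 below 0, alveolar type 2 markers, 8 of 9 above 0, and alveolar type 1 markers, 3 of 6 above 0, overlapped between groups in their sums, as did epithelial markers, at 3770 to 5227 CPM and 2982 to 7298 CPM. Control 2 was the deepest library and had the lowest endothelial and alveolar type 2 sums, 146 and 27407 CPM.

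For each member the gene with the most similar profile over the 10 libraries was sought among 15193 autosomal genes tested. Id1 was closest to Areg, which encodes the EGF receptor ligand amphiregulin (Pearson r of log2 CPM 0.954), and Id3 to Zbtb17 (0.968). Id4 was closest to Mxra8 (0.966), and Id2 to Gm6061 (0.911). Bmp2 was closest to Atpif1 (0.969), Bmp4 to Ngef (0.929), Bmp6 to Cdkn2aipnl (0.932) and Bmpr2 to ATF7 (0.953). Smad6 was closest to Gorasp2 (0.966) and Smad7 to Acad8 (0.942). Each is the highest of 15193 values from 10 libraries, and no test was made.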

How the data were processed

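RNA of the CD45-negative fraction of dissociated tumours was sequenced as 10 stranded mRNA libraries, 5 control and 5 Glut1-KO, grouped by their titles. The authors deposited raw read counts per Ensembl gene, unnormalized, for 39017 genes, made per the submitters' processing notes with bcl2fastq 2.17, cutadapt 1.4.2, HISAT2 on mm10 and featureCounts 1.4.4. The strand setting and annotation release are not given in the sources used here. The single tables equalled the 10 columns of the annotated table. A deposited log2 table was not used. Library totals ran from 35.3 to 49.8 M counts, and the fewest counts of a member were 5 (Id4). The SEs come from the spread between libraries, to which counting error adds.

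Counts were analysed in R 4.3.3 with edgeR 4.0.16 (filterByExpr, minimum count 10, minimum total 15, TMM) and limma 3.58.1 (voom with prior count 0.5, group as the only term), with Benjamini-Hochberg adjustment over 15922 genes and a threshold of 0.05. The scheme was tested on simulated data. CPM are TMM-scaled. TPM used exon lengths of GENCODE M21 (GRCm38). Alternatives were library totals, DESeq2 1.42.0 size factors and Wald test, edgeR's quasi-likelihood test, no filter, an average TPM of at least 20, a block by replicate number, sex as a covariate, a random block by name number, either sex of Glut1-KO alone, each library left out, and for levels CPM per length.

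The members and the gene lists were chosen with earlier results of these data known. Genes named were the members, Slc2a1, the 2 tested non-members with the smallest limma p in each pathway list, and the autosomal gene with the highest Pearson r with each member. Of marker lists sums are given, with at most 2 genes named by the rule. Txndc5, A330033J07Rik, Gm49291, Bmp5, Gdf2, Gdf7, Fn1 and, of the leukocyte markers, Ptprc, Lyz2 and Cd3e were named after their values were seen. The leukocyte sum without Lyz2 was added after the data were seen.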

Additional observations from a re-analysis of the deposited data

Results flagged for a closer look

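In groups of 5 libraries, a value was singled out where its gap to the nearest other value exceeded 0.71 of the range (Dixon's limit). This held for 8 of 76 groups of values. About 4 would be expected of normal and independent values. CPM of genes from the same libraries need be neither, so no excess is read from this count. Id1 measured 75.1 CPM in control 3, against 111 to 124 CPM in the other controls. Id4 measured 1.36 CPM in Glut1-KO 1, against 0.112 to 0.428 CPM in the others of that group. Smad6 measured 12.4 CPM in control 2, against 9.13 to 9.92 CPM in the other controls.

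Bmp7 stood apart in both groups, at 32.9 CPM in control 3 (others 0.289 to 6.63 CPM) and at 3.24 CPM in Glut1-KO 1 (others 0.214 to 0.828 CPM). Bmp8b measured 2.10 CPM in Glut1-KO 5, against 0.0920 to 0.657 CPM in the others. Inhba measured 5.27 CPM in Glut1-KO 4, against 0.608 to 1.79 CPM in the others. Control 2 had a total of 49.8 M counts, against 40.1 to 41.4 M counts in the other controls.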

How the results depend on the processing

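Bmp4, Bmpr2, Id2, Id3, Id4, Smad7 and Bmp6 kept their direction under every alternative run on them. Bmp6 passed the threshold under DESeq2 (adjusted p = 0.0408), and its adjusted p over the alternatives ran from 0.0408 to 0.646. Bmp2 turned to 0.51 with sex as a covariate and among male libraries, and to 0.09 without Glut1-KO replicate 2, within -0.50 to 0.09 over single libraries left out. Id1 turned to 0.15 in both sex analyses and ran from -0.64 to -0.25 over single libraries left out. Since all controls are male, both sex analyses compare the male Glut1-KO libraries with the controls, so their likeness is by design. Smad6 turned to 0.04 under edgeR and DESeq2, 0.37 with sex, 0.36 among male libraries, and 0.06, 0.13 and 0.05 without control 2, Glut1-KO 2 or Glut1-KO 3 (range -0.15 to 0.13). Over single libraries left out Smad7 ran from -0.21 to -0.05 and Id4 from -1.92 to -1.03. The causes were not tested.

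The count of genes called was 0 in limma, 215 under DESeq2, 3 with sex as a covariate, 1 among male libraries, 9 for female Glut1-KO and 0 to 1 over single libraries left out (1 without control 3). Members called numbered 1 under DESeq2 and 0 otherwise. Members at an unadjusted limma p under 0.05 numbered 4, beside 1223 of 15922 genes. With sex as a covariate they numbered 1 (1761 of 15922 genes), and among male libraries 1 (1556 of 16762). Over single libraries left out they numbered 2 to 5, beside 896 to 1678 genes. Members with no overlap numbered 1, beside 295 of 15922 genes. They numbered 2 with library totals (278 of 15922 genes), 2 for female Glut1-KO (1561 of 16430), 2 among male libraries (2858 of 16762) and 0 under the TPM minimum of 20 (115 of 7290), which leaves out Bmp6, Bmpr2, Id4 and Smad6. Over single libraries left out they numbered 1 to 2 (2 without control 1 or 2 or Glut1-KO 1 or 5), beside 386 to 657 genes.

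Replicate numbers did not pair the libraries: deviations of same-numbered libraries correlated at -0.131 to 0.196, over 0.1 for 1 of 5. With the replicate number as a block 0 genes and 0 members were called, and Smad6 moved to 0.0023. Counting error weighs most on Id4 and Bmp6, at 5 to 94 and 26 to 116 counts per library. The spread between libraries also limits deeper members, such as Bmp2 at 494 to 2601 counts with an SE of 0.40.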
